A study of Punica granatum with 14 samples.

Results

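A set of 150 pomegranate genes was described whose read counts were higher under both paclobutrazol and B9 than in CK and in mannitol. Their ranges under paclobutrazol and B9 overlapped, which does not require equal levels. For each gene, counts were scaled by the library's total to CPM (counts per 1000000 counts), and log2(CPM + 1) was taken. The score of a gene was its lowest value among the 8 paclobutrazol and B9 libraries minus its highest value among the 6 CK and mannitol libraries. Of 27893 genes, 299 had a score above 0, which means that every paclobutrazol or B9 library lay above every CK or mannitol library. In 260 of these, the range of the 4 paclobutrazol libraries overlapped that of the 4 B9 libraries, and the 150 with the highest score were kept. The genes were thus chosen by the measured contrast of both growth retardants with CK and mannitol, and levels and fold changes in it are given as a description without a test.

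Leaves of wild-type seedlings of the cultivar Hongmanao were sequenced after 90 days of treatment. The treatments were paclobutrazol at 8 and 6 mg/L, B9 (daminozide) at 8 and 6 mg/L, mannitol at 15 and 2.5 g/L, and distilled water for CK. Every condition had 2 plants, which makes 14 libraries. All seedlings were raised by tissue culture from stem tips on WPM medium with the auxin IBA, so every group, CK included, had been exposed to that auxin. Whether the plants of a condition descended from different mother plants was not given in the sources used here.

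Paclobutrazol is a triazole that blocks ent-kaurene oxidase, a cytochrome P450 enzyme early in gibberellin synthesis. B9 resembles 2-oxoglutarate and blocks the dioxygenases that act late in the same pathway, while mannitol acts mainly as an osmotic agent that withholds water from the plant. Both growth retardants thus lower active gibberellins, the hormones that drive stem elongation, at different enzymes. The files name the genes by locus symbols alone, with no product name, so no role is given to any of the 150 genes, and leaf marker genes could not be looked up to check the labelled tissue.

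Total counts per library ranged from 15790717 to 28385703. The 2 plants of 6 mg/L paclobutrazol stood apart from each other. The Pearson correlation of their log2 CPM as scaled by edgeR, across genes that passed a filter on low counts, was 0.904. In the other 6 conditions it was 0.958 to 0.973. This difference reached into the 150 genes. Where a result was repeated without either of these plants and its counts or calls moved, the value without the plant is given. The fold changes of paclobutrazol and B9 relative to CK were not refitted in this way. In bulk leaf RNA, a change in the number of cells of a type and a change in the RNA per cell cannot be told apart.

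The 150 genes sat above CK in every paclobutrazol and B9 library. Relative to the CK mean, their median log2(CPM + 1) was 0.91 and 1.18 higher in the plants of 8 mg/L paclobutrazol and 0.59 and 1.47 higher in those of 6 mg/L. It was 0.73 and 0.83 higher in the plants of 8 mg/L B9 and 0.79 and 0.87 higher in those of 6 mg/L. The second plant of 6 mg/L paclobutrazol was thus the highest library and the first plant the lowest of the 8, with the 4 B9 libraries close together between them.

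In the mannitol plants the genes lay near CK, which the rule fixed in part, since a gene with a mannitol library as high as any paclobutrazol or B9 library was not taken. The median difference to the CK mean was -0.04 and -0.33 in the plants of 15 g/L mannitol, 0.15 and -0.02 in those of 2.5 g/L, and 0.05 and -0.05 in the CK plants themselves. Over all 19478 genes that passed the filter on low counts, the median lay between -0.19 and 0.01 in every library. The 150 genes took 0.973% and 1.20% of all counts with paclobutrazol at 8 mg/L, 0.758% and 1.53% with paclobutrazol at 6 mg/L, 0.863% and 0.877% under 8 mg/L B9 and 0.881% and 0.918% under 6 mg/L. The shares were 0.487% and 0.392% under 15 g/L mannitol, 0.573% and 0.495% under 2.5 g/L mannitol and 0.534% and 0.499% in CK.

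**Figure D1:**
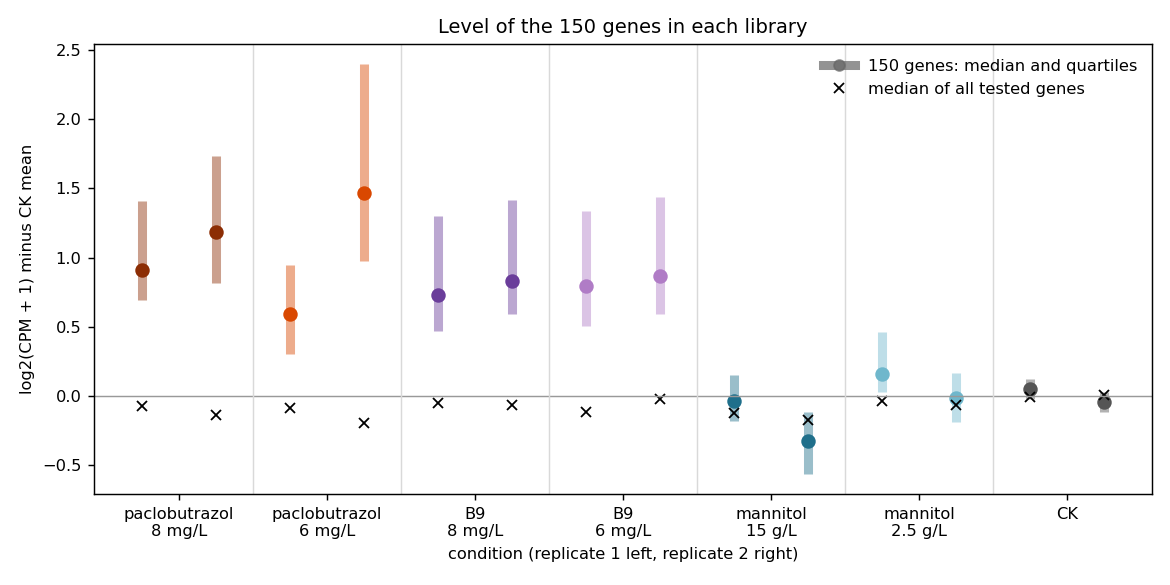
Level of the 150 genes in each of the 14 libraries, as log2(CPM + 1) minus the CK mean; dots are medians over the genes, bars run between the quartiles, and crosses are medians over all genes that passed the filter. The 8 paclobutrazol and B9 libraries have medians between 0.59 and 1.47, and the mannitol and CK libraries between -0.33 and 0.15.

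In the fit of all libraries with edgeR, the median log2 fold change of the 150 genes relative to CK was 1.30 with paclobutrazol at 8 mg/L, 1.45 with paclobutrazol at 6 mg/L, 0.98 under 8 mg/L B9 and 1.01 under 6 mg/L B9. A log2 fold change over 1 was found for 107 of them under 8 mg/L paclobutrazol (14.6% of all tested genes), for 110 under 6 mg/L paclobutrazol (11.4%), for 74 under 8 mg/L B9 (12.8%) and for 75 under 6 mg/L B9 (12%). It was over 1 in all 4 treatments for 62 genes, over 2 in all 4 for 24 genes, and in none of them for 28 genes. The rule thus took in genes with large and with small steps, as long as no library crossed over. It required a rise in all 4 treatments, and the share of all tested genes was not taken for these joint counts. The values of 6 mg/L paclobutrazol rest on the lowest and the highest of the 8 treated libraries. They were not refitted without either plant, so no order of the paclobutrazol doses is read from them.

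**Figure D2:**
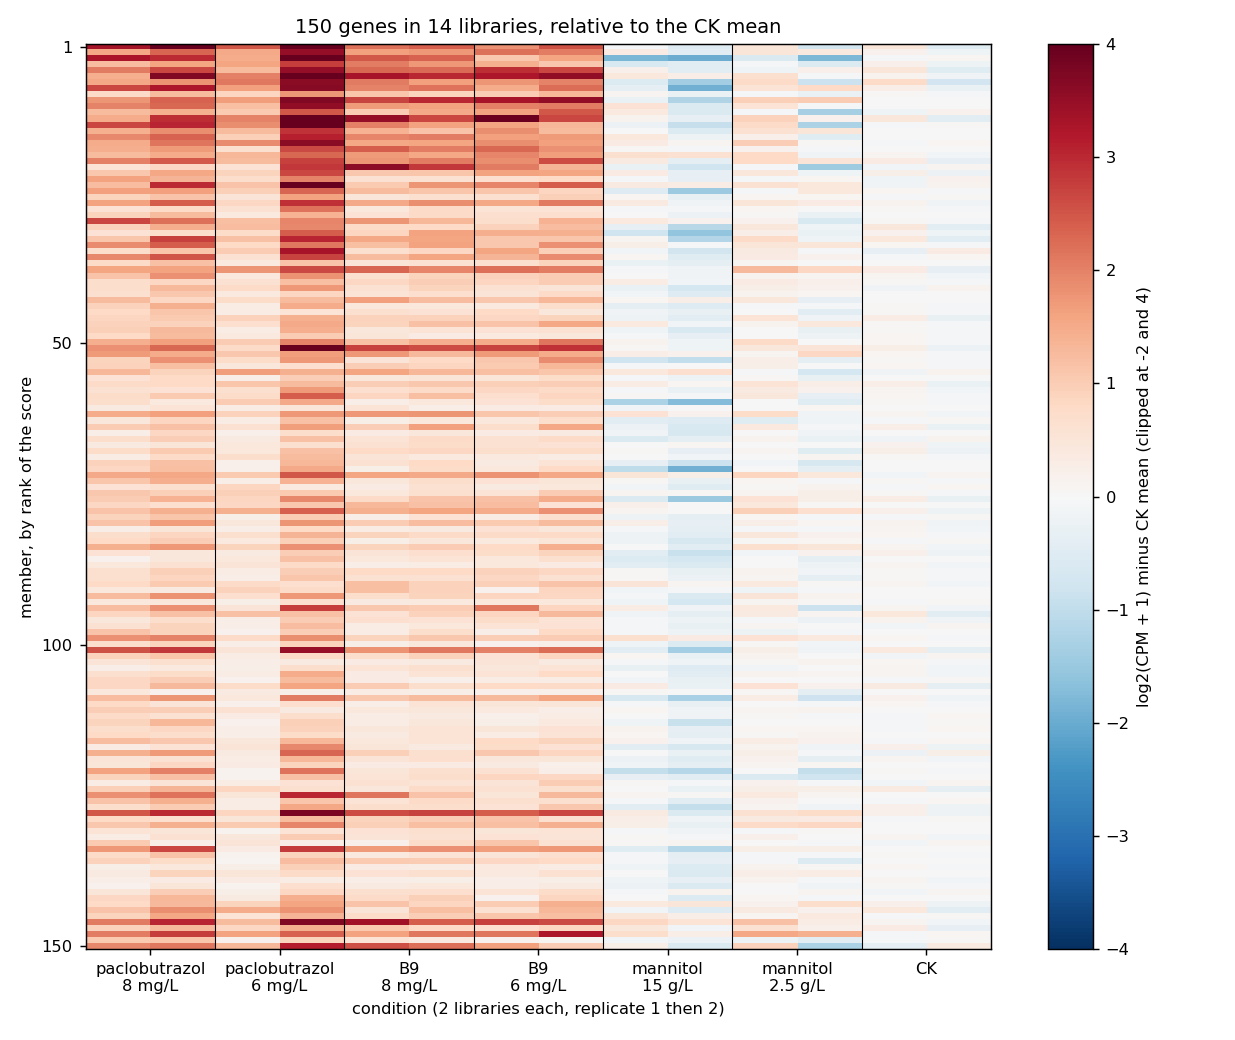
The 150 genes (rows, in order of the score, highest at the top) in 14 libraries (columns, 2 per condition), coloured by log2(CPM + 1) minus the CK mean and clipped at -2 and 4. Red fills the 8 paclobutrazol and B9 columns, darkest in the second plant of 6 mg/L paclobutrazol, and the mannitol columns are mostly pale.

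The score fell off quickly along the list. It was 1.34 for the first gene, had a median of 0.178 and was 0.0753 for the last. It exceeded 1 in 3 genes, 0.5 in 16, 0.25 in 49 and 0.1 in 130. Most genes were therefore separated from CK and mannitol by a narrow margin at the closest pair of libraries.

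LOC116193635, the gene with the highest score, had 110.3 and 187 CPM under 8 mg/L paclobutrazol, 60.3 and 235 under the 6 mg/L dose, 49.8 and 56.04 under 8 mg/L B9, 38.1 and 63.2 under 6 mg/L B9, against 9.61 and 6.67 under 15 g/L mannitol, 14.4 and 5.55 under 2.5 g/L mannitol and 14.5 and 6.81 in CK. Its lowest treated library, a plant of 6 mg/L B9, had a higher CPM than any CK or mannitol plant, all of which stayed within 5.55 to 14.5 CPM. LOC116211517, the second, had 7.82 and 13.9 CPM under 8 mg/L paclobutrazol, 7.56 and 33.1 under the 6 mg/L dose, 8.42 and 9.02 under 8 mg/L B9, 12.8 and 11.4 under 6 mg/L B9, against 2.73 and 1.24 under 15 g/L mannitol, 3.22 and 2.88 under 2.5 g/L mannitol and 2.35 and 1.67 in CK. Here the treated plants other than the second plant of 6 mg/L paclobutrazol held close to each other. Its annotated span overlaps that of LOC116211516, and since the sources used here do not state whether the counting used strand, reads of such partners may not be told apart.

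LOC116201220, the third, varied most of all 150 genes, with a range of 4.83 on the log2 scale over the 8 treated libraries. It had 55.5 and 45.3 CPM under 8 mg/L paclobutrazol, 15.3 and 350.4 under the 6 mg/L dose, 32.1 and 28.96 under 8 mg/L B9, 11.4 and 16.6 under 6 mg/L B9, against 0.663 and 0.214 under 15 g/L mannitol, 2.92 and 0.699 under 2.5 g/L mannitol and 4.61 and 5.14 in CK. The second plant of 6 mg/L paclobutrazol stood 2.64 above the next treated library on that scale, the largest lead of this plant in any of the 150 genes. Mannitol plants lay below both CK plants in this gene. LOC116188042 was a weakly counted gene and had 3.35 and 4.496 CPM under 8 mg/L paclobutrazol, 4.45 and 11.6 under the 6 mg/L dose, 6.52 and 5.16 under 8 mg/L B9, 3.97 and 2.86 under 6 mg/L B9, against 0.207 and 0.342 under 15 g/L mannitol, 0.729 and 0.262 under 2.5 g/L mannitol and 1.11 and 0.599 in CK. Its treated and untreated libraries did not meet at any point, although a mannitol library could hold as few as 5 reads of it.

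LOC116208852 had 26.9 and 41.1 CPM under 8 mg/L paclobutrazol, 15.1 and 74.5 under the 6 mg/L dose, 31.6 and 30.9 under 8 mg/L B9, 50.3 and 41.6 under 6 mg/L B9, against 6.63 and 3.89 under 15 g/L mannitol, 4.97 and 6.599 under 2.5 g/L mannitol and 8.23 and 3.81 in CK. The highest B9 plant and the second plant of 6 mg/L paclobutrazol led, and the first plant of 6 mg/L paclobutrazol was the lowest treated one. LOC116197002 had 7.78 and 41.1 CPM under 8 mg/L paclobutrazol, 12.05 and 139 under the 6 mg/L dose, 30.5 and 25.02 under 8 mg/L B9, 29.5 and 36.99 under 6 mg/L B9, against 3.36 and 2.86 under 15 g/L mannitol, 4.03 and 2.098 under 2.5 g/L mannitol and 2.59 and 1.93 in CK. The B9 plants were alike in this gene, whereas both pairs of paclobutrazol plants were far apart. LOC116203513, which overlaps the span of the long noncoding gene LOC116203514, had 133 and 160.0 CPM under 8 mg/L paclobutrazol, 201 and 570.2 under the 6 mg/L dose, 195 and 145 under 8 mg/L B9, 156 and 181 under 6 mg/L B9, against 30.7 and 16.8 under 15 g/L mannitol, 77.4 and 24.7 under 2.5 g/L mannitol and 77.1 and 26.6 in CK. The CK plants differed from each other here by more than the 8 mg/L paclobutrazol plants did.

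LOC116215469 had 54.7 and 80.3 CPM under 8 mg/L paclobutrazol, 26.2 and 108 under the 6 mg/L dose, 33.4 and 38.1 under 8 mg/L B9, 23.6 and 40.5 under 6 mg/L B9, against 5.84 and 1.32 under 15 g/L mannitol, 11.6 and 14.2 under 2.5 g/L mannitol and 9.39 and 6.33 in CK. Mannitol at 15 g/L lay below CK in both plants, and mannitol at 2.5 g/L above it in both. LOC116200842 took many reads and had 199 and 282 CPM under 8 mg/L paclobutrazol, 215 and 400.2 under the 6 mg/L dose, 254 and 219 under 8 mg/L B9, 237 and 298 under 6 mg/L B9, against 126 and 96.9 under 15 g/L mannitol, 111 and 97.98 under 2.5 g/L mannitol and 121 and 115 in CK. The 6 CK and mannitol plants of this gene were close together, so a modest difference was enough for a high score. LOC116188741 was higher under B9 than under 8 mg/L paclobutrazol in every plant, as it had 24.1 and 37.05 CPM under 8 mg/L paclobutrazol, 22.5 and 93.8 under the 6 mg/L dose, 47.1 and 58.7 under 8 mg/L B9, 70.9 and 85.4 under 6 mg/L B9, against 5.18 and 2.22 under 15 g/L mannitol, 13.1 and 13.9 under 2.5 g/L mannitol and 6.25 and 6.46 in CK.

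LOC116203881 had 6.22 to 35.6 CPM in the 4 paclobutrazol plants and 8.51 to 11.9 CPM in the 4 B9 plants, against 1.07 to 3.65 CPM in the 4 mannitol plants and 2.19 and 2.05 CPM in CK. LOC116190217, the twelfth, had 4.45 to 13.7 CPM under paclobutrazol and 4.26 to 13.6 CPM under B9, against 0.0437 to 2.44 CPM under mannitol and 1.31 and 1.97 CPM in CK. LOC116190217 covered nearly the same levels under both growth retardants, whereas the highest paclobutrazol plant of LOC116203881 lay well above its highest B9 plant. The fitted log2 fold changes relative to CK of the 12 genes ranged from 1.19 for LOC116200842 to 3.96 for LOC116193635 under 8 mg/L paclobutrazol.

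**Figure D3:**
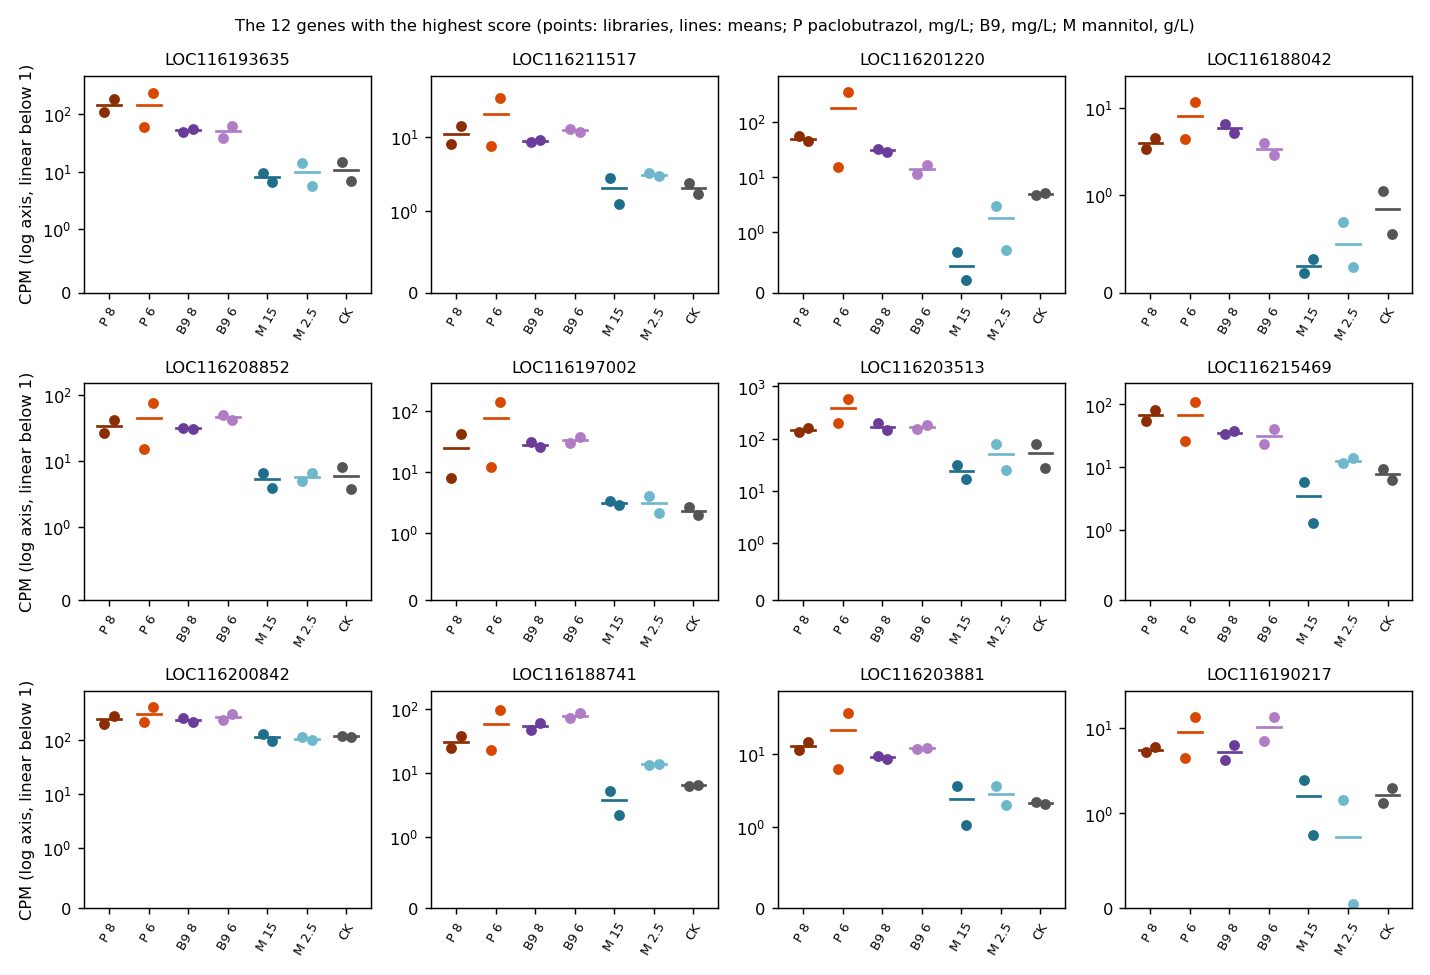
CPM of the 12 genes with the highest score in every library, on a log axis that is linear below 1; points are single plants and lines are means of 2 plants. In each panel all paclobutrazol and B9 points lie above all mannitol and CK points, and the second plant of 6 mg/L paclobutrazol is the highest point in all 12 panels.

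The genes that took the most reads showed the same separation with smaller steps. LOC116204095 had 856 and 881 CPM under 8 mg/L paclobutrazol, 464 and 771 under the 6 mg/L dose, 606 and 545 under 8 mg/L B9, 460.2 and 447 under 6 mg/L B9, against 385 and 349 under 15 g/L mannitol, 356 and 300.0 under 2.5 g/L mannitol and 400.4 and 424 in CK. In this gene 6 mg/L B9 lay only just above CK, and 8 mg/L paclobutrazol far above it. LOC116200149 had 561 and 684 CPM under 8 mg/L paclobutrazol, 394 and 472 under the 6 mg/L dose, 499.7 and 478 under 8 mg/L B9, 558 and 441 under 6 mg/L B9, against 291 and 259.9 under 15 g/L mannitol, 323 and 238 under 2.5 g/L mannitol and 329.7 and 310.1 in CK. LOC116205222 had 354 to 579.8 CPM under paclobutrazol and 371 to 397 CPM under B9, against 208 to 333 CPM under mannitol and 317 and 287 CPM in CK. In all of these, no B9 or paclobutrazol plant reached down to the highest CK or mannitol plant. LOC116196598 and LOC116208431 had treated levels of 266 to 424 CPM and 227 to 498 CPM, against 142 to 221 CPM and 118 to 189.8 CPM in mannitol and CK. Over the 150 genes, the mean CPM of the 8 treated libraries had a median of 36.1 and ranged between 0.862 and 629, with 28 genes below 10 and 29 at 100 or more. Transcript lengths were not given, so these values rank reads and not transcripts.

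A few genes were close to undetected in CK. Both CK libraries had 3 counts or fewer in 4 genes, which were picked out after their values were seen. LOC116214791 had 52 and 55 counts with paclobutrazol at 8 mg/L, 9 and 142 with paclobutrazol at 6 mg/L, 98 and 30 under 8 mg/L B9 and 9 and 31 under 6 mg/L, against 2 and 1 under 15 g/L mannitol, 7 and 2 under 2.5 g/L mannitol and no count in either CK plant. Taking 3 counts in the smaller CK library as the floor (0.128 CPM), its mean CPM was at least 23.5-fold higher under 8 mg/L paclobutrazol, 29.3-fold under 6 mg/L paclobutrazol, 18.05-fold under 8 mg/L B9 and 7.26-fold under 6 mg/L B9 than in CK. These bounds cover counting error only, and setting this gene at its bound left the 4 medians relative to CK at 1.30, 1.45, 0.98 and 1.01. The span of LOC116214791 overlaps that of the more strongly counted LOC116214780, so reads of the pair may not be told apart. LOC116214780 averaged 41.4 CPM under paclobutrazol and 39.6 CPM under B9, against 62.8 CPM in CK and mannitol. LOC116199094, annotated as a long noncoding RNA, had 37 and 38 counts with paclobutrazol at 8 mg/L, 14 and 109 with paclobutrazol at 6 mg/L, 131 and 85 under 8 mg/L B9 and 91 and 57 under 6 mg/L B9, against 2 and 0 under 15 g/L mannitol, 4 and 0 under 2.5 g/L mannitol and 1 and 1 in CK. LOC116197829 had 11 counts or more in every treated library, against 0 and 0 under 15 g/L mannitol, 2 and 1 under 2.5 g/L mannitol and 2 and 0 in CK. LOC116213061 had 12 counts or more in every treated library, against 8 and 0 under 15 g/L mannitol, 10 and 9 under 2.5 g/L mannitol and 2 and 3 in CK. It was thus detected in 3 of the 4 mannitol plants above its CK counts.

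The rule asked only for overlapping ranges, so the levels under the growth retardants could still differ. The mean log2(CPM + 1) of the 4 paclobutrazol libraries exceeded that of the 4 B9 libraries in 114 genes and fell below it in 36, with a median difference (paclobutrazol minus B9) of 0.18. Without the second plant of 6 mg/L paclobutrazol these numbers were 73 and 77, and the median was -0.0046. That plant was the highest treated library in 97 genes, so leaving it out had to lower the paclobutrazol mean there. The first plant, the lowest treated library in 79 genes, was not left out in turn. Whether the lean toward paclobutrazol rests on 1 plant is thus not decided. Over all 8 libraries the difference was over 1 toward paclobutrazol in 3 genes, namely LOC116193635 (1.35), LOC116201220 (1.53) and LOC116205701 (1.27). It was over 1 toward B9 in LOC116204995 alone, at -1.26. Without the second plant of 6 mg/L paclobutrazol, only LOC116193635 stayed over 1 toward paclobutrazol. The difference was then over 1 toward B9 in 4 genes, namely LOC116188741, LOC116208328, LOC116204995 and LOC116205179. The values of LOC116205701 were 21.7 to 106 CPM under paclobutrazol and 14.7 to 24.3 CPM under B9, against 1.62 to 9.73 CPM in mannitol and CK. LOC116204995 had 4.23 and 5.32 CPM with paclobutrazol at 8 mg/L, 4.36 and 24.3 with paclobutrazol at 6 mg/L, 41.4 and 24.4 under 8 mg/L B9 and 14.1 and 8.11 under 6 mg/L B9, against 0.3496 to 2.82 in the mannitol and CK plants. Its overlap of ranges came from the second plant of 6 mg/L paclobutrazol, since the other 3 paclobutrazol plants lay below all B9 plants.

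The spread among the treated libraries differed from gene to gene. Over the 8 treated libraries, the range of a gene had a median of 1.05 on the log2 scale and was under 1 in 67 genes. Without the second plant of 6 mg/L paclobutrazol the median range was 0.79, and 100 genes were under 1, which is 33 more. Leaving out a library can only narrow a range, and no other library was left out for comparison. The fall is therefore not read as particular to that plant. That plant was the highest treated library in 97 of the 150 genes and led by more than 1 in 16. The first plant of the same dose was the lowest treated library in 79. For these counts, shares over all tested genes were not taken, so no trait of the 150 genes is read from them. The most even gene was LOC116195479, with 21.3 to 22.9 CPM in the treated plants, against 14.3 to 19.98 CPM in mannitol and CK.

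Replicate 2 exceeded replicate 1 in 141 of the 150 genes under 6 mg/L paclobutrazol, where it did so in 46.4% of all tested genes. The corresponding values were 127 genes and 44.1% under 8 mg/L paclobutrazol, 100 genes and 46.3% under 8 mg/L B9, and 99 genes and 62.0% under 6 mg/L B9. The reverse held in the mannitol plants, where replicate 2 was the higher one in 11 genes under 15 g/L (41.4% of tested genes) and in 34 under 2.5 g/L (46.1%). In CK it was higher in 51 genes (52.3%). The median of replicate 2 minus replicate 1, on the log2 scale, was 0.89 under 6 mg/L paclobutrazol (-0.06 over tested genes) and 0.29 under 8 mg/L (-0.05). It was -0.31 under 15 g/L mannitol (-0.06) and -0.19 under 2.5 g/L (-0.03). The shift was small under 8 mg/L B9, at 0.09 (-0.02), and in CK, at -0.09 (0.01). Under 6 mg/L B9 it was 0.06 (0.08), so the 150 genes did not stand out from the tested genes there.

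The rule did not compare the paclobutrazol doses, but it required every plant of both doses to lie above CK and mannitol. Genes raised at a single dose were thus left out, and a lack of dose differences was fixed in part. With edgeR's quasi-likelihood test and Benjamini-Hochberg adjustment over 19478 genes, none of the 150 genes was a DEG between 8 and 6 mg/L paclobutrazol, where a DEG was a gene past both thresholds, a log2 fold change beyond 1 in either direction and 0.05 for the adjusted p. Of all tested genes, 0.57% were higher and 0.924% lower at 8 mg/L by the same thresholds. At an unadjusted p under 0.05 with the fold threshold, no gene was higher and 4 were lower at 8 mg/L, against 5.09% and 6.53% of all genes. DESeq2 called 1 of the 150, against 7.35% of the genes to which it gave an adjusted p. Their median log2 fold change was -0.11 (54 positive of 150), against -0.04 over all tested genes (47.5% positive). Both plants of 8 mg/L lay above both of 6 mg/L in 10 genes (24.8% of tested genes) and below both in 8 (15.8%).

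The 4 genes, named after their values were seen, were LOC116203919, LOC116195267, LOC116195387 and LOC116200212. LOC116195387, which DESeq2 called, had 21.8 and 29.2 CPM under 8 mg/L paclobutrazol and 27.4 and 138 CPM under 6 mg/L. Its log2 fold change was -1.78 ± 0.64 (SE), with an edgeR adjusted p of 0.144, and its 8 mg/L plants straddled the lower plant of 6 mg/L, so the groups overlapped. The smallest adjusted p in this comparison was 0.104, for LOC116208629, which had 138 and 139 CPM under 8 mg/L and 107 and 88.7 CPM under 6 mg/L and a log2 fold change of 0.47 ± 0.14. The 2 dose groups of this gene did not overlap, but the step was below the fold threshold.

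Which plant stood for 6 mg/L paclobutrazol turned the direction round. Without its first plant, 18 of the 150 genes were called, all lower at 8 mg/L (2.76% of all tested genes were called lower and 0.923% higher), and the median log2 fold change was -0.54. Without its second plant, 18 were called, all higher at 8 mg/L (8.97% of tested genes were called higher and 10.7% lower), and the median was 0.54. Only LOC116201220 and LOC116205179 were in both lists, with log2 fold changes of -2.92 and -2.28 without the first plant and of 1.76 and 1.67 without the second. A lone plant was assumed in these fits to vary like the plants of the other conditions. No direction between paclobutrazol doses can be read for these genes.

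The steps between the B9 doses were small. The rule fixed this in part too, since it left out genes raised at a single B9 dose. None of the 150 genes was a DEG between 8 and 6 mg/L B9, where 0% of tested genes were higher and 0.00513% lower. None passed an unadjusted p under 0.05 with the fold threshold either (2.82% of tested genes higher, 0.442% lower), and DESeq2 called none (0.489% of its genes). The median log2 fold change was -0.01 with 73 of 150 genes positive, and the absolute log2 fold change was over 1 in 4 genes, against 9.92% of all tested genes. The 2 plants of 8 mg/L lay above both of 6 mg/L in 25 genes (19.3% of tested genes) and below both in 33 (23.1%).

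The dose step of paclobutrazol minus the dose step of B9 passed the thresholds in none of the 150 genes with edgeR and in 1, LOC116189656, with DESeq2 (2.03% of its genes). Of the tested genes, 0.0565% had a higher and 0.113% a lower step under paclobutrazol. At an unadjusted p under 0.05 with the fold threshold, LOC116188042, LOC116204995 and LOC116189656 had a lower step under paclobutrazol and none a higher one. By these thresholds, 4.74% of the tested genes had a lower and 2.43% a higher step. LOC116189656 had 15.6 and 15.1 CPM with paclobutrazol at 8 mg/L and 22.8 and 20.4 with paclobutrazol at 6 mg/L, and 27.6 and 22.5 CPM under 8 mg/L B9 and 13.001 and 21.5 under 6 mg/L. Its difference of steps was -1.10 ± 0.30 on the log2 scale, with an adjusted p of 0.245. The paclobutrazol doses of this gene did not overlap, and the B9 doses did not either. The plants of 6 mg/L paclobutrazol decided this comparison too. Without the first one, 3 of the 150 genes were called, all with a lower step under paclobutrazol (1.72% of all tested genes were called in either direction), and the median difference of steps was -0.53. Without the second, 14 were called, 13 of them with a higher step under paclobutrazol (13.6% of tested genes), and the median was 0.61.

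The rule did not compare mannitol with CK, but it took the highest of their 6 libraries, so genes that mannitol raised to the level of the growth retardants were not among the 150. None of the 150 genes was a DEG under 15 g/L mannitol against CK with edgeR (0.0103% of tested genes higher, 0.0154% lower). DESeq2 called 1 (2.2% of its genes), and edgeR without both 6 mg/L paclobutrazol libraries called LOC116201220 and LOC116203618, both lower (1.19% of tested genes), as it did when either plant alone was left out. At an unadjusted p under 0.05 with the fold threshold, LOC116202544 was higher, and LOC116201220, LOC116203618 and LOC116206119 were lower. By these thresholds, 2.82% of tested genes were higher and 2.6% lower. LOC116203618 had 17.2 and 12.01 CPM under 15 g/L mannitol, against 43.8 and 41.4 CPM in CK. This gene, the one that DESeq2 called, had a log2 fold change of -1.35 ± 0.26 and an edgeR adjusted p of 0.101. Both plants of 15 g/L mannitol lay below both CK plants in it, although its level under paclobutrazol and B9 was 51.1 to 125 CPM. Among the 150 genes, both plants of 15 g/L lay below both CK plants in 56 (42.5% of tested genes) and above both in 19 (14.8%).

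Under 2.5 g/L mannitol, again none of the 150 genes was a DEG against CK with edgeR (0.0359% of tested genes higher, 0.0205% lower), and DESeq2 called 2 (4.66% of its genes). The 4 genes at an unadjusted p under 0.05 with the fold threshold were all higher, namely LOC116193523, LOC116187276, LOC116202544 and LOC116189394. By these thresholds, 3.52% of tested genes were higher and 4.77% lower. LOC116189394 had 21.4 and 19.6 CPM under 2.5 g/L mannitol and 6.28 and 7.23 CPM in CK, and LOC116193523 had 21.95 and 15.9 CPM under 2.5 g/L mannitol and 10.9 and 6.46 CPM in CK. Their log2 fold changes were 1.69 ± 0.42 and 1.21 ± 0.35, with edgeR adjusted p of 0.0967 and 0.135. These were the 2 that DESeq2 called, and they passed with edgeR too when either or both 6 mg/L paclobutrazol libraries were left out of the fit (3.04% of tested genes without both). Over the 150 genes the median log2 fold change was 0.17, with 116 positive, against 0.03 and 53.2% over all tested genes, and it stayed between 0.10 and 0.27 when single plants were left out. Both plants of 2.5 g/L lay above both CK plants in 43 genes (22.3% of tested genes) and below both in 11 (32.7%). The first plant of 2.5 g/L mannitol exceeded both CK plants in 94 of the 150 genes (36.1% of tested genes) and the second in 50 (32.8%).

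Between 15 and 2.5 g/L mannitol, none of the 150 genes was a DEG with edgeR (0% of tested genes in either direction). DESeq2 called 4 (2.56% of its genes), and edgeR called LOC116188741 and LOC116203618, both lower at 15 g/L, when either or both 6 mg/L paclobutrazol libraries were left out (0.917% of tested genes without both). At an unadjusted p under 0.05 with the fold threshold, LOC116204919 was higher at 15 g/L and 8 genes were lower. By these thresholds, 3.83% of tested genes were higher and 2.47% lower. LOC116204919 had 22.5 and 27.1 CPM under 15 g/L mannitol and 15.8 and 9.83 CPM under 2.5 g/L, with a log2 fold change of 1.08 ± 0.24 and an adjusted p of 0.136. LOC116203618 went the other way, with 17.2 and 12.01 CPM under 15 g/L and 42.9 and 30.4 CPM under 2.5 g/L and an adjusted p of 0.124. The median over the 150 genes was -0.23, with 39 positive, against -0.02 and 48.3% over all tested genes, and it lay between -0.39 and -0.06 when single plants were left out. Both plants of 15 g/L lay below both of 2.5 g/L in 72 genes (35.9% of tested genes) and above them in 4 (20.5%). The first plant of 2.5 g/L mannitol was the highest of the 6 CK and mannitol libraries in 72 genes. The second plant of 15 g/L was the lowest in 90. Shares over all tested genes were not taken for these counts, so they are not read as a trait of the 150 genes. The second plant of 15 g/L mannitol lay below both CK plants in 111 of the 150 genes, against 57.1% of tested genes.

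**Figure D4:**
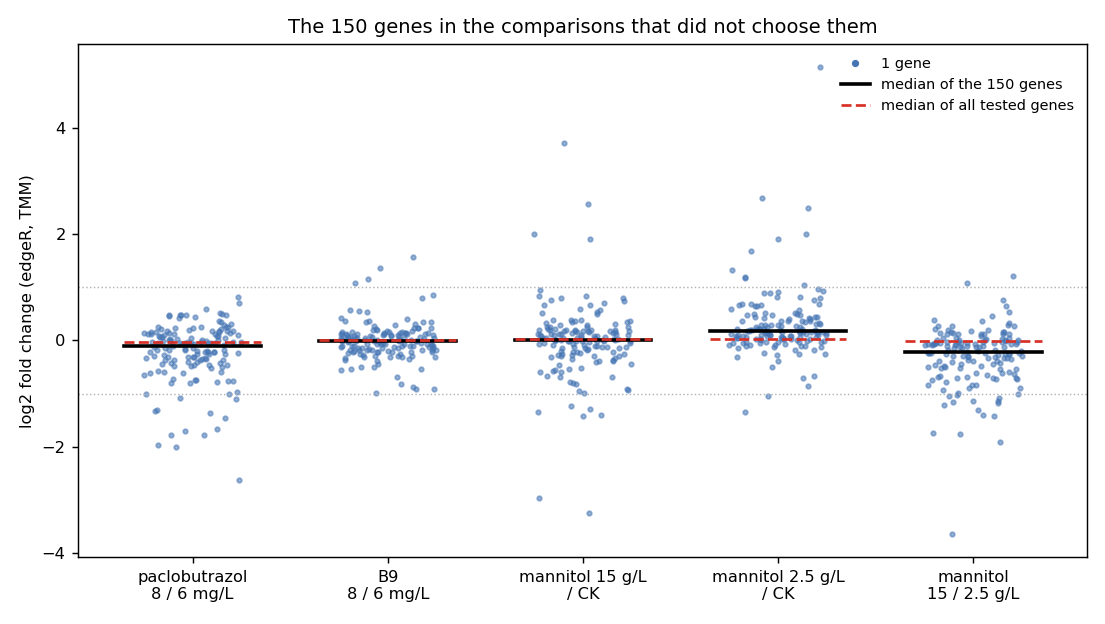
Log2 fold changes of the 150 genes (1 point each) from the edgeR fit in 5 comparisons that the rule did not make, although it limited them in part. Black lines are medians of the 150 genes, dashed red lines medians of all tested genes, and dotted lines mark 1 and -1. The medians run from -0.23 for 15 against 2.5 g/L mannitol to 0.17 for 2.5 g/L mannitol against CK, and the point at 5.15 is LOC116214791, which had 7 and 2 counts under 2.5 g/L mannitol and no count in CK.

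The limit of 150 genes cut through a dense part of the list. The last genes inside were LOC116189394 (score 0.0759), LOC116204095 (0.0758) and LOC116215495 (0.0753), and the first outside were LOC116208635 (0.0739), LOC116203384 (0.0734) and LOC116211966 (0.0721). LOC116215495 had 18.9 to 86.01 CPM in the treated plants, against 3.103 to 17.9 CPM in mannitol and CK. LOC116208635 had 22.8 to 49.3 CPM in the treated plants, against 14.4 to 21.7 CPM in mannitol and CK. LOC116203384, also left out, took more reads than any gene kept, with 483 to 1050.4 CPM, against 272 to 459 CPM. Without the first plant of 6 mg/L paclobutrazol 1111 genes met the rule in place of 260, with 111 of the 150 among them.

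By RefSeq annotation, 139 of the 150 genes were protein-coding, 10 were long noncoding RNAs (6.67%, against 4.46% of tested genes) and 1 was a small nuclear RNA. Their annotated spans, introns included, were short, with a median of 2240 bases (quartiles 1694 and 2970), against 3104 bases (2059 and 4552) over all tested genes, and 118 lay below 3104 bases. Across all tested genes, the change relative to the CK mean was lower for longer genes in 7 of the 8 paclobutrazol and B9 libraries. Spearman's rho across tested genes was -0.334 and -0.349 with paclobutrazol at 8 mg/L, 0.0794 and -0.364 with paclobutrazol at 6 mg/L, -0.27 and -0.292 under 8 mg/L B9 and -0.17 and -0.14 under 6 mg/L. It was -0.15 and 0.0187 under 15 g/L mannitol and 0.0297 and 0.134 under 2.5 g/L mannitol. The CK plants themselves, against their own mean, had 0.11 and -0.11. The values under 6 mg/L B9 and mannitol were thus not far beyond those of single CK plants in size. Genes are not independent replicates, and these correlations are a description over 1 annotation. With the trend removed from each library, 342 genes met the rule, 129 of the 150 among them.

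**Figure D5:**
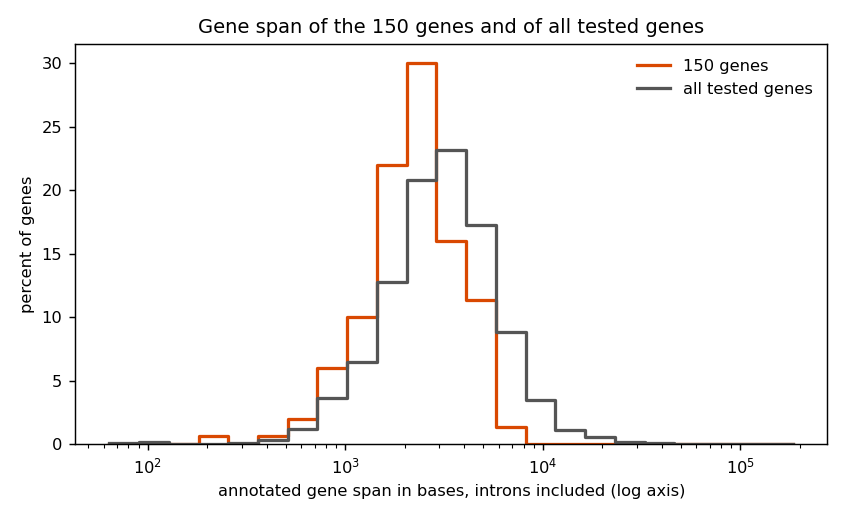
Annotated gene span in bases, introns included, on a log axis, as the percent of genes per bin, for the 150 genes and for all tested genes. The 150 genes peak at shorter spans, with a median of 2240 bases against 3104.

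The 150 genes were scattered along the genome. LOC116197338 and LOC116198002 were the only pair next to each other in gene order. LOC116197338 had 19.9 to 38.4 CPM in the treated plants, against 10.96 to 18.4 CPM in mannitol and CK, and LOC116198002 had 9.203 to 19.4 CPM, against 4.49 to 8.11 CPM. LOC116215149 and LOC116215195 had 1 gene between them, and LOC116197288 and LOC116195249 had 4. The spans of 14 of the 150 genes overlapped that of another gene (9.33%, against 8.02% of tested genes), and LOC116208628, the partner of LOC116208629, was the only such partner whose own score was above 0. LOC116189394 overlapped the far more strongly counted LOC116189393, which averaged 504 CPM in the paclobutrazol and 555 CPM in the B9 libraries, against 820 CPM in CK and mannitol, and so was lower under both growth retardants.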

How the data were processed

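Leaf RNA of 14 pomegranate seedlings was sequenced, 2 plants in each of 7 conditions that were taken from the sample labels. Per the labels and the paper's methods, the authors checked reads with FastQC, aligned them with HISAT2, kept uniquely placed reads and assigned these to genes with featureCounts. The deposited file holds raw counts of 27893 genes, without normalization. The paper's methods name the pomegranate reference genome by a citation. Its build, the program versions and the strand setting are not given in the sources used here. Of the genes, 4662 had no count in any library.

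CPM were counts per 1000000 of the column total, with a pseudocount of 1 before log2. The 150 genes, the lists and the alternatives were chosen with earlier results of these data known. Differential expression was fitted with edgeR 4.0.16 in R 4.3.3 on all 14 libraries with TMM, filterByExpr (minimum count 10; 19478 genes, all 150 members among them) and the 7 conditions as means. The quasi-likelihood test was applied to 6 comparisons that the rule did not make, with Benjamini-Hochberg adjustment within each. The rule still limited them, since every paclobutrazol and B9 plant had to lie above every CK and mannitol plant. The thresholds, a log2 fold change beyond 1 in either direction and 0.05 for the adjusted p, are those of the study. The biological coefficient of variation was 32.2%, and there were 7 residual and 3.01 prior degrees of freedom. The median SE of a log2 fold change was 0.34, or 0.48 for the difference of dose steps. With 2 plants per condition, p-values measure the spread between these plants. Tested on simulated data for 8 against 6 mg/L paclobutrazol over 19478 genes, the fit recovered 4 of 50 genes changed 2-fold, 25 of 50 at 4-fold, 38 of 50 at 8-fold and 41 of 50 at 16-fold, and called 5 unchanged genes. The simulation gave all conditions the same spread per gene. In the data, the plants of 6 mg/L paclobutrazol differed by a median of 0.554 in log2(CPM + 1) over tested genes, regardless of sign. In the other conditions this was 0.175 to 0.246, so the recovery rates do not describe this comparison as measured. DESeq2 1.42.0 was an alternative.

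Named genes were the 12 with the highest score, the 5 with the highest mean log2(CPM + 1) in the treated libraries, the last 3 inside and first 3 outside the limit, neighbours in gene order and any member called. Others were named after their values were seen. All 150 genes matched the RefSeq table of assembly ASM765513v2, which was used for biotype, span and gene order and holds no product names or sequences. The planned protein signatures, promoter motifs, protein identities and leaf markers were therefore not analysed here.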

Additional observations from a re-analysis of the deposited data

How the results depend on the processing

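The call of no DEG among the 150 genes held for 8 against 6 mg/L B9 in all 24 alternatives. DESeq2 on all 14 libraries called 1 gene for 8 against 6 mg/L paclobutrazol, 1 for 15 g/L mannitol against CK, 2 for 2.5 g/L mannitol against CK, 4 for 15 against 2.5 g/L mannitol and 1 for the difference of dose steps. Leaving out each replicate in turn gave 0 to 18 genes between the paclobutrazol doses, 0 to 2 in each of the 3 mannitol comparisons and 0 to 14 for the difference of dose steps. The highest values all arose without a plant of 6 mg/L paclobutrazol. For the difference of dose steps there were 3 genes without the first plant and 14 without the second, and the median of the 150 genes was -0.53 and 0.61. The 2 mannitol genes against CK at 2.5 g/L were LOC116193523 and LOC116189394, those at 15 g/L LOC116201220 and LOC116203618, and those between the mannitol doses LOC116188741 and LOC116203618, without either plant. Without both 6 mg/L paclobutrazol libraries, chosen after seeing the data, 2 genes were called in each mannitol comparison, and with edgeR on only the libraries compared, 1 for 15 g/L mannitol against CK. The adjusted p alone, other scalings and other filters on low counts gave 0.

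With a block for replicate number, 0 of the 150 genes were called in every comparison. The labels do not say that a number marks a shared batch, and deviations from the condition means correlated over 0.1 in only 6 of 21 pairs of same-numbered plants (-0.29 to 0.39, median -0.05), so the numbers were not taken to pair the plants over all conditions. Between the doses of 1 agent the correlation was positive each time, at 0.353 for paclobutrazol, 0.389 for B9 and 0.252 for mannitol, which is a hint from the data. With a replicate block within each agent, chosen after seeing the data, 0 of the 150 genes were called in the 4 dose comparisons, and 685 genes in all between the paclobutrazol doses, against 291 without a block.

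The number of genes that met the rule before the limit of 150 was 260. Leaving out each replicate in turn gave 255 to 1111, with 1111 without the first plant of 6 mg/L paclobutrazol (111 of the 150 among them) and 447 without the first plant of 2.5 g/L mannitol. Chosen after seeing the data, the rule without both 6 mg/L paclobutrazol libraries gave 1119 (95 of the 150 among them) and without 1 library each of 6 mg/L paclobutrazol and 2.5 g/L mannitol 1323. Also chosen after seeing the data, the mean of paclobutrazol against that of B9 without the second plant of 6 mg/L paclobutrazol put 73 genes above and 77 below, against 114 and 36 with it. TMM-scaled totals gave 340 and DESeq2 size factors 327, each with 143 of the 150. The genes at an unadjusted p under 0.05 with the fold threshold gave 24 values. Over 536 values under alternatives, 33 passed the thresholds and 0 changed direction. Other named genes were not followed in this way, and LOC116201220 and LOC116205179 did change direction between the paclobutrazol doses, at -2.92 and -2.28 without the first plant of 6 mg/L and 1.76 and 1.67 without the second.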

Other observations

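The rule left aside 39 genes in which every paclobutrazol and B9 library also lay above every CK and mannitol library, but in which the ranges of the growth retardants did not overlap. Paclobutrazol was the higher one in 29 of them and B9 in 10. The widest gap was that of LOC116203993, which had 22.9 and 19.9 CPM with paclobutrazol at 8 mg/L, 15.5 and 34.6 with paclobutrazol at 6 mg/L, 5.81 and 5.596 under 8 mg/L B9 and 3.88 and 3.94 under 6 mg/L B9, against 0.897 to 3.34 in mannitol and CK. LOC116206823 had the highest score of the 39, with 48.6 to 553 CPM under paclobutrazol and 15.4 to 43.4 CPM under B9, against 2.99 to 8.405 CPM in mannitol and CK. Of the genes higher under B9, LOC116192336 had the widest gap, with 31.1 to 55.3 CPM under paclobutrazol and 63.7 to 94.3 CPM under B9, against 12.4 to 30.7 CPM in mannitol and CK. These values chose the genes and carry no test, and the genes named here were picked after their values were seen.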
